A study of Homo sapiens with 8 samples.

Results

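Interferon-stimulated genes are the genes that a cell switches on when interferon reaches its receptors. Here 32 of them, chosen by name, are described in 2 T cell lines treated with epigenetic drugs. Earlier results of these data were known when these genes and all lists below were chosen. A probe set carried the symbol of 31 of the 32, 1 probe set for each, among 17687 named genes and 21448 transcript probe sets. The exception was STAT2, which no symbol in the annotation used here matched. MT-1 came from an adult T cell leukaemia, the disease behind which the retrovirus HTLV-1 stands, and MT-2 carries HTLV-1. Presence of the virus was not compared between the lines here. Each line was left untreated, given OR21, a DNA demethylating agent, given EPZ-6438 (tazemetostat, written EPZ in the labels), which blocks the histone methyltransferase EZH2, or given both (Comb). The doses were 500 nM OR21 and 2500 nM EPZ-6438 for MT-1, and 100 nM OR21 and 500 nM EPZ-6438 for MT-2. Exposure lasted 96 h, with a second addition at 48 h. Every group was 1 Affymetrix array, so a difference within a line has no replicate check, and line and dose cannot be told apart. The 3 treatments of a line share its untreated array.

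Interferons of type I bind the receptor pair IFNAR1 and IFNAR2, whose kinases JAK1 and TYK2 set off signalling to the nucleus. A complex that includes STAT2 and IRF9 then binds the interferon-stimulated response element in the promoters of these genes. The products sense foreign or misplaced RNA (RIGI, IFIH1, DHX58, EIF2AK2 and the OAS enzymes), regulate the response (IRF7, IRF9, STAT2, USP18, PARP9, XAF1) or act on viruses and infected cells (the IFIT, IFITM, MX and related effectors). Loss of DNA methylation is known in other cells to release repeat-derived RNA that these sensors detect.

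The promoters show how far the genes share the element through which interferon acts, so the windows of those with the highest differences or lower bounds under both agents are shown first. RefSeq (GRCh38.p14) gave a window of 250 bases before to 50 bases after the start for 25 of the 32 genes. The core of the element was searched as GAAANNGAAA, which reads TTTCNNTTTC on the other strand, with overlapping matches counted apart. It was found in 16 of the 25 windows (64.0%) and in 996 of all 27305 windows in the table (3.6%). Of the 5 sensors with a window, 3 held it (IFIH1, OAS3 and EIF2AK2), and of the 16 effectors 13 did. None of the 4 factors and regulators with a window (IRF9, STAT2, PARP9, XAF1) held these letters. The gamma-activated site, searched as TTCNNNGAA, the same on both strands, lay in 5 of the 25 windows (20.0%) and in 7.9% of all windows. The 250 bases before the start follow, 5′ to 3′ on the strand of the gene, with each element core in capitals.
IRF9 (chr14:24161015-24161264, + strand): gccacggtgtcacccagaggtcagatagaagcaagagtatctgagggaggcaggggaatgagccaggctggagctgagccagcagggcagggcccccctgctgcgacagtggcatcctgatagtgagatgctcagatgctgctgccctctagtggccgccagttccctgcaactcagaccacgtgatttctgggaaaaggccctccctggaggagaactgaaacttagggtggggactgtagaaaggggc
IFITM3 (chr11:320861-321110, - strand): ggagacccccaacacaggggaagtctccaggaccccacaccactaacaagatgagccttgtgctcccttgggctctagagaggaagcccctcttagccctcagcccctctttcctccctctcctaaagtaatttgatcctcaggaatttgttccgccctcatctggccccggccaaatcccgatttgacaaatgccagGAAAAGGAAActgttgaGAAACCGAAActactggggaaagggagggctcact
RIGI (chr9:32526197-32526446, - strand): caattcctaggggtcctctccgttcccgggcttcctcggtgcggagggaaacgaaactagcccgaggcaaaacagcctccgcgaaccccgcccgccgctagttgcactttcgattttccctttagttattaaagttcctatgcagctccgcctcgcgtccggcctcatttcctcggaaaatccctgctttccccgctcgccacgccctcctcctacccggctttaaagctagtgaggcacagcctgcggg
IFI6 (chr1:27672193-27672442, - strand): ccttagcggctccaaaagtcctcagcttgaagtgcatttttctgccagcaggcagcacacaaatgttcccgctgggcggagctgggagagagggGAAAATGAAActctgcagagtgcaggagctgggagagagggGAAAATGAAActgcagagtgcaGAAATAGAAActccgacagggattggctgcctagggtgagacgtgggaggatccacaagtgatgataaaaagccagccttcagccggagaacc
SAMD9L (chr7:93148386-93148635, - strand): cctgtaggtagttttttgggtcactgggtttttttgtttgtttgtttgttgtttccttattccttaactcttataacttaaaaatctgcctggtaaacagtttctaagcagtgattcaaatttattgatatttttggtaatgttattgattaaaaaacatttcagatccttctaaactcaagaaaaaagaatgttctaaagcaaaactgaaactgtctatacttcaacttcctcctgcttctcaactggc
IFI6 carried 3 cores and IFITM3 carried 2 in these stretches, and IRF9, RIGI and SAMD9L carried 0, which says only that the exact letters are not there.

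CpG, the dinucleotide that carries DNA methylation, was unevenly spread over the same windows. The 25 windows held a median of 7 CpG, from 0 in IFI44, IFI44L and SAMD9L to 45 in RSAD2, against a median of 14 over all windows. IRF9 had 7 CpG, IFIT3 had 5, IFITM3 had 8, PARP9 had 6 and RIGI had 27. Among the 16 genes with the element the median difference of Comb from untreated was 0.60 log2 units (MT-1) and 0.15 (MT-2). Among the 8 measured genes with a window but without the element it was 0.92 and 0.16. Methylation itself was not measured here.

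**Figure D1:**
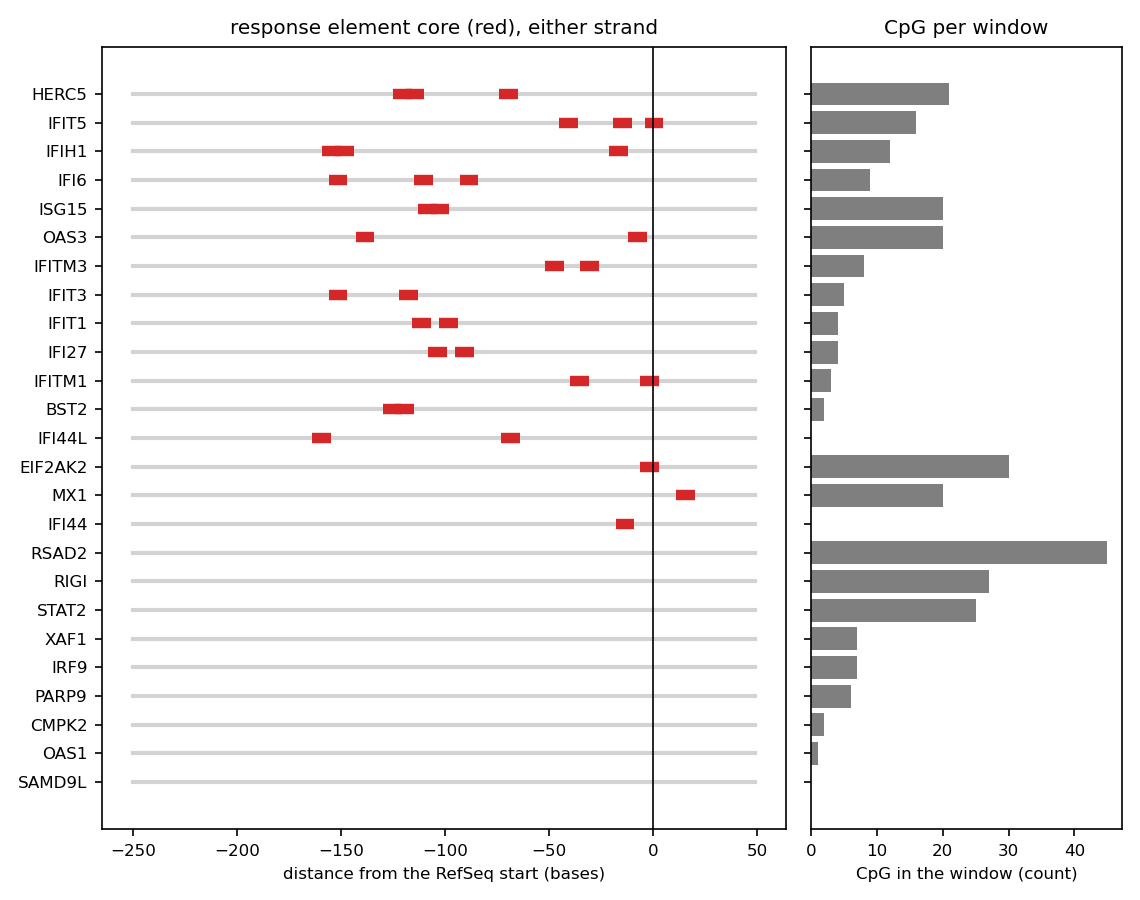
Left, each grey line is the RefSeq window of 1 of the 25 genes by distance from the start in bases, and each red block is a response element core on either strand. Right, bars give the count of CpG in the same window; 16 windows hold a core, and RSAD2 has the most CpG with 45.

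Values are log2 signals made with RMA, and the background of an array is the 95th percentile of its 612 negative-control probe sets, between 7.19 and 7.80. A difference is called measured where both levels exceed background, and is given as "at least" or "or lower" against the background level where 1 of them does. Where neither does, or where the 1 that does lies under the background of the other array, no difference is given. Of the 12 T cell markers checked, 6 stood above background on all 4 MT-1 arrays and 5 on all 4 MT-2 arrays, with IL2RA, the interleukin 2 receptor, between 15.10 and 16.96. CD3D, CD3E, CD3G, CD2 and LCK stood above background on no array. Of the markers with a probe set, none of the 4 for B cells, 5 for myeloid cells, 2 for NK cells or 2 for erythroid cells stood above background on all 4 arrays of a line. On some arrays CD79A (5), CD79B (3) and MPO (1) did exceed it. Of the 4 epithelial and stromal markers, KRT8 was above background on all 8 arrays. In bulk RNA, fewer cells expressing a gene and less RNA per cell cannot be told apart.

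Many genes of the interferon programme gave no signal above background in either line. Of the 31 genes, 7 stood above background on all 8 arrays, 12 on some and 12 on none. The 7 were the kinase EIF2AK2 (PKR) and the helicase IFIH1 (MDA5) among the sensors, the deconjugating protease USP18, and the effectors IFITM1, IFITM3, IFI6 and SAMD9L. The 12 on no array were OAS1, OAS2, OASL, IRF7, XAF1, IFI27, IFI44L, IFIT1, IFIT2, MX1, MX2 and RSAD2. These include IFIT1, MX1 and RSAD2 (viperin), which are standard markers of an interferon response. MX1, a GTPase that traps viral nucleocapsids, came nearest, at 5.66, 5.98, 5.71 and 7.14 in MT-1 (untreated, OR21, EPZ-6438 and Comb, the order used throughout), and lay between 5.78 and 5.94 in MT-2. IFI44L (3.28 to 3.96) and IFIT1 (3.5 to 4.06) were among the dimmest, and IFI27 (5.54 to 6.15), IRF7 (3.92 to 4.79) and XAF1 (5.18 to 6.38) stayed below background under every treatment. Untreated MT-1 had 8 genes above background and untreated MT-2 had 11. The count was 11 with OR21, 9 with EPZ-6438 and 15 with Comb in MT-1, and 14, 12 and 14 in MT-2. Of all 21448 transcript probe sets, 8949, 9322, 9331 and 9718 exceeded background in MT-1, and 8126, 8484, 8875 and 8512 in MT-2. Most probe sets of each array were thus below background too. At the 99th percentile of the negative controls, MT-1 had 8 both untreated and with Comb. At that level MT-2 had 5 untreated and 6 with Comb.

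**Figure D2:**
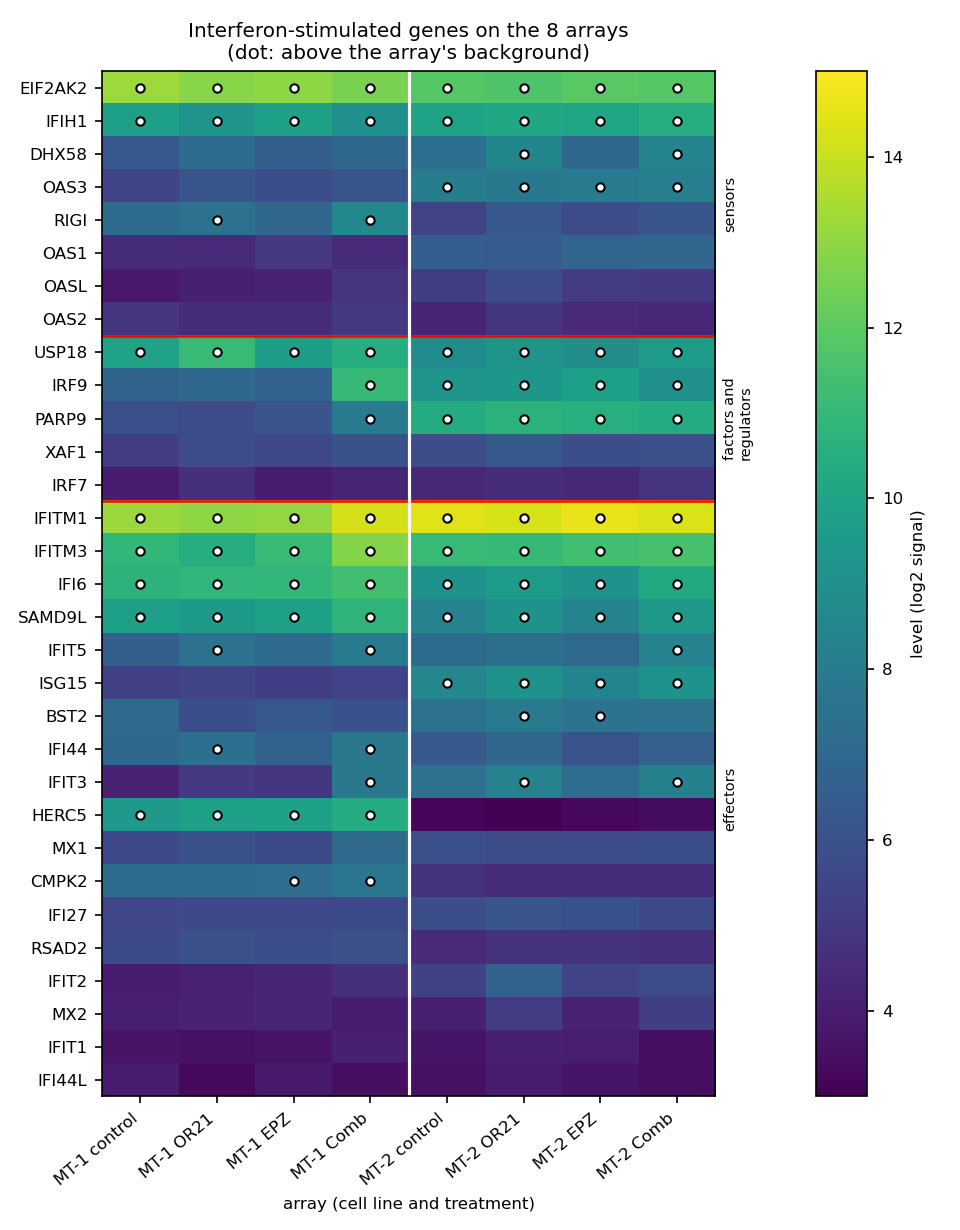
Colour gives the log2 signal of each of the 31 measured genes (rows, grouped as sensors, factors and regulators, and effectors) on each of the 8 arrays (columns), and a dot marks a level above the background of that array. The column of MT-1 with Comb has 15 dots against 8 for untreated MT-1, and the dots of IRF9 and PARP9 appear in MT-1 only there. Of all 21448 transcript probe sets, 9718 and 8949 exceeded background on the same arrays.

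The interferons themselves were not detected. None of the 14 measured ligands, from IFNB1 through the IFNA genes and IFNG to IFNL1, stood above background on any array. The receptor chains for type I interferon were above background on all 8 arrays. IFNAR1 lay between 9.39 and 9.77 in MT-1 and between 11.30 and 11.71 in MT-2, and IFNAR2 between 12.73 and 13.52 over all 8 arrays. JAK1 lay between 12.44 and 13.02 and TYK2 between 10.02 and 12.01. Of the chains of the lambda interferon receptor, IFNLR1 exceeded background on 1 array, MT-1 with Comb (7.26), and IL10RB on 2 of the 4 MT-1 arrays and all 4 MT-2 arrays.

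The lines differed in which genes of the programme they carried. In the limma fit of cell line and treatment to all 8 arrays, 10 of the 31 measured genes were higher in MT-2 and 8 were lower (22 passed the filter on low values and were tested), at a Benjamini-Hochberg adjusted p under 0.05. Over all 12942 probe sets tested, 22.7% were called higher and 40.7% lower, so a difference between the lines was the rule. The 4 arrays of a line are its 4 treatments and not replicates, and the error of the fit is what remains after the terms for line and treatment, with 3 residual degrees of freedom. Of the 18 genes called, OAS1 and IFIT2 were above background on no array, so their calls rest on dim signal. HERC5, CMPK2 and RIGI passed the filter on low values only through MT-1, and ISG15, OAS3, OAS1 and IFIT2 only through MT-2. The line that admitted each of them also gave its difference. No conclusion is therefore drawn from the adjusted p of these genes, which the counts of 10 and 8 include.

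HERC5, the ligase that attaches ISG15 to proteins, was above background in MT-1 alone. It stood at 9.43, 9.81, 9.88 and 10.42 in MT-1 and at 3.23, 3.06, 3.27 and 3.42 in MT-2. The lines did not overlap, and MT-2 was below background on every array. The fitted difference was -6.64 ± 0.17 (SE), or -1.63 or lower untreated when taken against background. HERC6, its neighbour on chromosome 4, stood between 7.38 and 7.90 in MT-1 and between 6.66 and 7.16 in MT-2. ISG15, the ubiquitin-like protein that HERC5 attaches, had the opposite pattern. It stood at 5.29, 5.52, 5.22 and 5.43 in MT-1 and at 8.55, 9.14, 8.40 and 9.12 in MT-2. The fitted difference was 3.44 ± 0.16, or at least 1.10 untreated when taken against background. MT-1 was below background on every array, so each line had signal above background for only 1 partner of this ligase and substrate pair.

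PARP9, an ADP-ribosyltransferase that works with DTX3L, was 4.08 ± 0.4 higher in MT-2 in the fit (adjusted p = 0.000302). As 3 of the 4 MT-1 arrays were below background, the untreated difference is given as at least 2.90. OAS3, which makes the 2-5A messenger that activates RNase L, stood between 7.86 and 8.15 in MT-2. In MT-1 it stood between 5.49 and 6.20, below background (2.08 ± 0.18 in the fit, and at least 0.60 untreated against background). EIF2AK2, which stops translation on binding double-stranded RNA, was lower in MT-2 (-1.09 ± 0.16, adjusted p = 0.0014), with levels of 12.58 to 13.22 in MT-1 and 11.68 to 11.93 in MT-2. IFI6 (-1.43 ± 0.17), USP18 (-1.15 ± 0.22) and SAMD9L (-1.16 ± 0.21) were also lower in MT-2, and IFITM1 was higher (1.07 ± 0.26).

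OR21 alone was followed by few differences of 1 log2 unit or more. In MT-1, 1 of 31 genes was higher by 1 log2 unit or more (USP18) and 1 lower (BST2, below background on both arrays), where 5.35% of all probe sets were higher and 3.75% lower. In MT-2, 3 of 31 were higher (DHX58, IFIT2 and MX2, of which only DHX58 exceeded background) and 0 lower, where 2.36% and 1.69% of all probe sets were. Unless said otherwise, shares beside counts within a line are over the 12942 probe sets kept by the filter on low values. The genes were counted without that filter. Without it the shares with OR21 were 3.64% and 2.48% (MT-1) and 1.88% and 1.25% (MT-2). The median difference of the 31 genes was 0.17 (MT-1) and 0.37 (MT-2), against -0.06 over all probe sets in each line. After centring of each array, the MT-1 value was 0.01 and the MT-2 value 0.32. With every level below background raised to it, the MT-2 median was -0.24, which reflects the difference between background levels. At a threshold of 0.5, 7 genes were higher and 3 lower in MT-1 and 12 higher and 0 lower in MT-2. The share of all probe sets at 0.5 was not computed, so no conclusion is drawn from these counts.

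USP18, which also blocks signalling at the interferon receptor, had the highest difference with OR21 in MT-1. Its levels were 9.90, 11.08, 9.67 and 10.48 in MT-1 and 8.82, 9.19, 8.95 and 9.57 in MT-2. In both lines the OR21 and Comb arrays lay above the untreated and EPZ-6438 arrays. USP18 has a near-identical copy, USP41, so the source of this signal is uncertain. DHX58 (LGP2), a helicase that tunes the other RNA sensors, stood at 6.29, 7.18, 6.65 and 7.02 in MT-1, all below background, and at 7.39, 8.53, 7.05 and 8.35 in MT-2, where it exceeded background with OR21 and with Comb. These were the only 2 of 22 genes at an unadjusted p under 0.05 with OR21 in limma (DHX58 1.02 ± 0.28, adjusted p = 0.57, and USP18 0.77 ± 0.31, adjusted p = 0.587), with 3.21% of probe sets higher at that level. None of the 22 genes, and 0 of all probe sets, had an adjusted p under 0.05. Leaving out an array leaves 1 array in a group. The count of 2 was then lower without untreated MT-1, either EPZ-6438 array or MT-2 with OR21. It was higher without either Comb array. The count of calls over all probe sets moved the same way each time.

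EPZ-6438 alone was followed by little in this programme. No gene of the 31 differed by as much as 1 in either line, where 1.03% of all probe sets were higher and 0.294% lower in MT-1, and 0.896% and 0.355% in MT-2. The median differences were 0.06 in MT-1 (-0.01 after centring each array) and 0.07 in MT-2. The latter was -0.37 once every level below background was raised to it. In MT-2 the highest was IRF9, at 9.27 untreated and 9.76 with EPZ-6438. In MT-1 the highest was IFIT3, at 4.18 and 4.91 and below background on both arrays. By limma 0 of 22 genes reached an adjusted p under 0.05 and 0 an unadjusted p under 0.05, with 1.23% of all probe sets higher at the latter.

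In MT-1 more genes were higher by 1 or more with both agents (9) than with OR21 (1) or EPZ-6438 (0), and IRF9 had the highest difference. IRF9 is the DNA-binding subunit of the interferon-activated complex. Of 31 genes, MT-1 had 9 higher by at least 1 (RIGI, IRF9, PARP9, IFIT3, IFIT5, IFITM1, IFITM3, MX1 and SAMD9L) and 1 lower (BST2). Of the 9, 8 exceeded background with Comb, and for 5 (IRF9, IFITM3, RIGI, SAMD9L and IFITM1) the difference taken against background was itself 1 or more. The same array had 11.2% of all probe sets higher by at least 1 and 9.64% lower (8.11% and 6.32% with no filter on low values). The median of the 31 genes was 0.61, against -0.05 for all probe sets. It was 0.38 after centring and -0.27 with every level below background raised to it, where most of these genes sit at that level. Centring moved the median of all probe sets on the same array from near 0 to -0.29.

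IRF9 stood at 6.80, 7.03, 6.76 and 11.02 in MT-1 and at 9.27, 9.36, 9.76 and 9.03 in MT-2. Only the Comb array of MT-1 exceeded background, and it exceeded all 4 MT-2 arrays. The difference from untreated was at least 3.56 log2 units, at least 11.8-fold, and -0.25 in MT-2. IFIT3, an effector that stabilises IFIT1 on viral RNA, stood at 4.18, 5.0, 4.91 and 7.80 in MT-1 and at 7.48, 8.32, 7.30 and 8.22 in MT-2. In MT-1 it reached background only with Comb (at least 0.35), and in MT-2 it did so with OR21 (at least 0.51) and with Comb (at least 0.42).

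PARP9 was at 5.94, 5.73, 6.15 and 7.88 in MT-1, again above background only with Comb (at least 0.42), and at 10.36, 10.72, 10.57 and 10.36 in MT-2. Its partner DTX3L, the neighbouring gene on chromosome 3, stayed below background in MT-1 (5.39 to 6.83) and stood between 8.87 and 9.66 in MT-2. RIGI, the sensor of 5′-triphosphate RNA, was at 7.25, 7.53, 6.94 and 8.62 in MT-1 and between 5.48 and 6.24 in MT-2, below background. Its difference with Comb in MT-1 was at least 1.16. The other helicase sensor differed the other way in MT-1: IFIH1 stood at 9.79, 9.19, 9.85 and 9.04 there and at 9.92, 10.15, 10.11 and 10.46 in MT-2, so Comb against untreated was -0.75 (MT-1) and 0.54 (MT-2). EIF2AK2 was at 13.22, 12.87, 12.96 and 12.58 in MT-1 (-0.65 with Comb) and at 11.85, 11.68, 11.93 and 11.82 in MT-2.

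The IFITM proteins, which block fusion of viral and cellular membranes, were already bright. IFITM3 stood at 10.96, 10.49, 11.13 and 12.76 in MT-1 and at 11.11, 11.06, 11.39 and 11.52 in MT-2. IFITM1 stood at 13.18, 12.95, 13.05 and 14.22 in MT-1 and at 14.45, 14.28, 14.62 and 14.34 in MT-2. In MT-1 Comb was 1.80 higher for IFITM3 and 1.04 higher for IFITM1, while OR21 alone was at -0.48 and -0.23. IFITM2, the neighbour of both on chromosome 11, was higher with Comb by 1.45 (MT-1) and 0.22 (MT-2). The 3 genes are close copies, so how their signal divides among them is uncertain.

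SAMD9L, an antiviral and growth-restraining factor, was 1 of the few genes with a like difference in both lines. It stood at 9.77, 9.56, 9.83 and 10.81 in MT-1 and at 8.33, 9.12, 8.39 and 9.48 in MT-2, so Comb was 1.05 and 1.14 higher, and OR21 alone was at -0.21 and 0.79. SAMD9, next to it on chromosome 7, was 1.78 higher with Comb in MT-1 and below background in MT-2. IFI6, a mitochondrial and endoplasmic reticulum protein that opposes apoptosis and viral replication, stood at 10.78, 10.90, 10.93 and 11.38 in MT-1 and at 9.18, 9.64, 9.16 and 10.31 in MT-2. Its Comb array was the highest of each line, by 0.60 over untreated in MT-1 and by 1.13 in MT-2.

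In MT-2 the combination left 4 of 31 genes higher by 1 or more (IFI6, IFIT5, MX2 and SAMD9L, all but MX2 above background) and 0 lower, against 5.05% and 1.95% of all probe sets. For IFI6 and SAMD9L the difference taken against background was 1 or more. The median of the 31 was 0.20, lower than with OR21 alone (0.37), against -0.02 for all probe sets, and -0.17 with every level below background raised to it. ISG15 was 0.56 higher with Comb and 0.59 with OR21. IFIT5, a relative of IFIT1, stood at 6.63, 7.50, 7.21 and 8.0 in MT-1 and at 7.23, 7.44, 7.13 and 8.31 in MT-2. It reached background in MT-2 only with Comb, and in MT-1 with OR21 and with Comb.

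**Figure D3:**
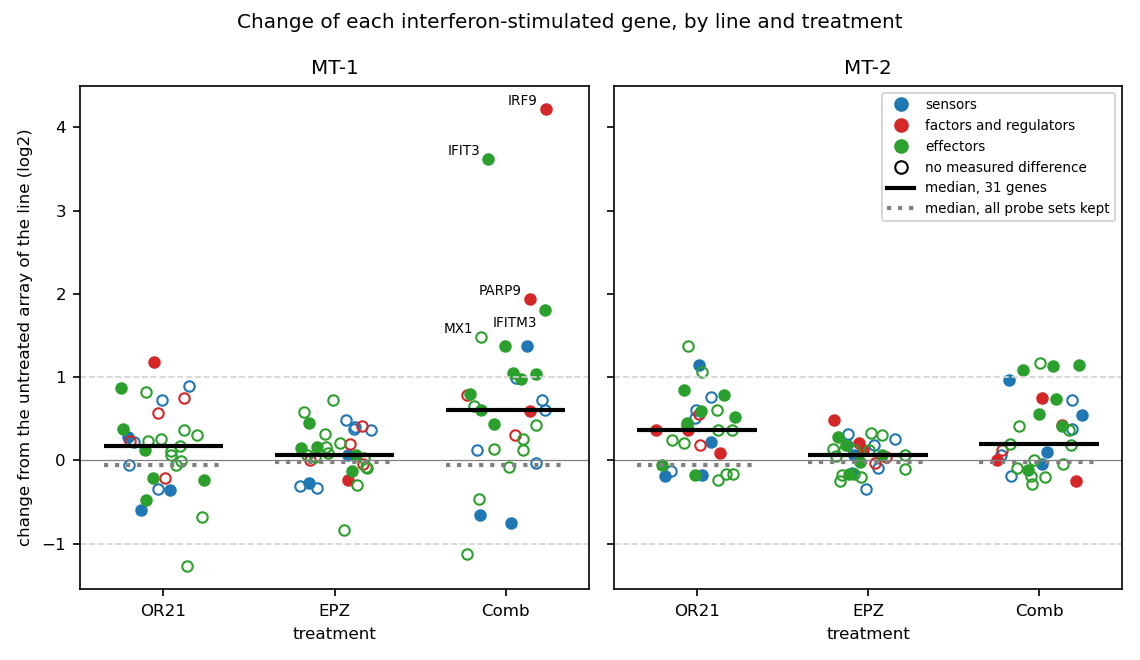
Each point is 1 of the 31 genes, placed by its log2 difference from the untreated array of its line as deposited, with colour for role. Open points are genes for which no difference is given. Filled points include those with only a bound against background, such as IRF9 and IFIT3 in MT-1 with Comb, still placed at the deposited difference. Black bars are the median of the 31 genes and dotted bars that of all probe sets kept; MT-1 with Comb has the highest median (0.61), with IRF9 and IFIT3 at the top.

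Across the lines, limma found 8 of 22 genes higher with Comb at an unadjusted p under 0.05 and 0 lower, where 9.19% of all probe sets were higher. They were RIGI, DHX58, IFI44, IFI6, IFIT3, IFIT5, IFITM3 and SAMD9L. IFIT5 had the smallest p (1.23 ± 0.24, unadjusted p = 0.0021, adjusted p = 0.16), followed by SAMD9L (1.09 ± 0.3, adjusted p = 0.187) and IFI6 (0.86 ± 0.24, adjusted p = 0.188). IRF9 was not among them (1.99 ± 1.16, adjusted p = 0.375); the error of this fit is the disagreement between the lines in their response to treatment. No gene had an adjusted p under 0.05, nor did any of the 12942 probe sets. The count of 8 was 5 with each array centred on its median. Leaving out an array leaves 1 array in a group. The count was then lower without either untreated array or the MT-1 Comb array, and higher without the MT-2 Comb array. The count of calls over all probe sets moved the same way each time.

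Without the MT-2 Comb array, 6 of the 22 genes had an adjusted p under 0.05 with Comb, as did 5.72% of all probe sets: IRF9 (4.28 ± 0.3, adjusted p = 0.00871), IFIT3 (3.47 ± 0.37, adjusted p = 0.0161), IFITM3 (1.89 ± 0.27, adjusted p = 0.0319), PARP9 (2.03 ± 0.3, adjusted p = 0.0328), RIGI (1.55 ± 0.29, adjusted p = 0.0451) and MX1 (1.37 ± 0.27, adjusted p = 0.0487). That estimate rests on the lone MT-1 array, assumed to vary like the other groups. MX1 was above background on no array. It passed the filter on low values (6.573) only through MT-1 with Comb, at 7.14 against 5.66 to 5.98 elsewhere. The array that admitted MX1 also gave its difference, so no conclusion is drawn from its adjusted p.

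What each agent added to the other was read from the same arrays. EPZ-6438 on top of OR21 gave differences of at least 1 for 8 of 31 genes in MT-1 (5.77% of all probe sets) and for 0 in MT-2 (2.4%). OR21 on top of EPZ-6438 left 8 higher in MT-1 (9.46%) and 5 in MT-2 (2.79%). Of the MT-2 genes, DHX58, IFI6, IFIT5 and SAMD9L exceeded background and MX2 did not. By limma 3 of 22 genes had an unadjusted p under 0.05 for the first comparison (IFITM3 1.37 ± 0.44, SAMD9L 0.8 ± 0.3 and IFIT5 0.69 ± 0.24, 4.71% of probe sets higher, adjusted p = 0.697 for each). For the second, 7 did (RIGI, DHX58, IFI44, IFI6, IFIT3, IFIT5 and SAMD9L, 5.80% of probe sets higher, smallest adjusted p = 0.401). Leaving out an array leaves 1 array in a group. Without the MT-2 Comb array the count was higher in both comparisons, among these genes and over all probe sets. Among these genes it was lower in both without the MT-1 Comb array. It was also lower in the first without MT-1 with OR21, and in the second without either EPZ-6438 array.

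The excess of the combination over the sum of the single agents (Comb minus OR21 minus EPZ-6438 plus untreated) separated the lines by value. In MT-1 it was 1 or more for 8 of 31 genes: IRF9 (4.03), IFITM3 (2.11), IFIT3 (2.07), PARP9 (1.94), IFITM1 (1.41), RIGI (1.4), SAMD9L (1.19) and MX1 (1.13). Of all probe sets, 5.30% were that high. In MT-2 it was 1 or more for 0 of 31 genes, against 2.43% of all probe sets, and IFIT5 was highest at 0.97. It was -1 or lower for 1 gene, IFIT2 (-1.09), which was below background on every array. Where the lower levels lie under background the excess is itself uncertain in size, and the difference between the lines could not be tested. Across lines limma gave 0 of 22 genes at an unadjusted p under 0.05 (1.01% of all probe sets higher). Without the MT-2 Comb array, which leaves 1 Comb array, the count was higher among these genes and over all probe sets. Without MT-2 with OR21 it was higher among these genes only.

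Neighbouring members of a family did not share 1 pattern. IFIT2, IFIT3, IFIT1 and IFIT5 lie side by side on chromosome 10 with IFIT1B among them, yet only IFIT3 and IFIT5 exceeded background on any array. IFIT2 had its highest level, 6.73, with OR21 in MT-2. On chromosome 12, OAS3 was present in MT-2 while OAS1 (6.47 to 6.98) and OAS2 (4.29 to 4.89) stayed below background there. CMPK2, a mitochondrial nucleotide kinase whose gene lies next to RSAD2 on chromosome 2, stood at 7.24, 7.23, 7.30 and 7.69 in MT-1 and between 4.52 and 4.75 in MT-2. RSAD2 stood between 5.71 and 5.98 in MT-1 and was not above background. IFI44 reached background in MT-1 with OR21 and Comb (7.0, 7.36, 6.71 and 7.80) and its neighbour IFI44L did not. With OR21 its level lay under the background of the untreated array (7.46), so no difference is given. BST2 (tetherin), which holds budding virions at the cell surface, stood at 7.15, 5.88, 6.32 and 6.03 in MT-1 and at 7.48, 7.99, 7.55 and 7.49 in MT-2. It was above background in MT-2 with OR21 and EPZ-6438 and on no array of MT-1. Background in MT-2 was 7.80 untreated and 7.43 with EPZ-6438, so no difference is given for EPZ-6438.

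Of the 15 measured receptor and JAK-STAT genes, 3 were higher by 1 or more with Comb in MT-1 and 0 lower, where 11.2% of all probe sets were higher and 9.64% lower. IRF1, a factor that can drive the same promoters, stood at 6.22, 6.93, 6.30 and 10.27 in MT-1 (at least 2.82 with Comb) and at 9.59, 9.33, 9.72 and 9.73 in MT-2. With Comb, STAT3 was higher by 2.31 (MT-1) and 0.45 (MT-2), and IL10RB by at least 0.20 (MT-1). IRF1 thus had the pattern of IRF9, above background in MT-1 only with both agents and on every array of MT-2. SOCS1, an inhibitor of JAK kinases, was above background only in MT-2 (7.62 to 8.25).

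Of the 15 measured adaptors and further sensors of nucleic acids, MT-1 had 2 higher by at least 1 with Comb and MT-2 had 1, with equal counts under OR21 and 0 lower. Over all probe sets the shares higher with Comb were 11.2% (MT-1) and 5.05% (MT-2), so counts this small are near them, and with OR21 they were 5.35% and 2.36%. STING1, the adaptor of cytosolic DNA sensing, stood at 6.74, 7.84, 6.91 and 10.36 in MT-1 and at 10.55, 11.99, 11.11 and 12.62 in MT-2. It was higher with OR21 and with Comb in both lines (Comb in limma 2.85 ± 0.48, unadjusted p = 0.00098, adjusted p = 0.143). TLR3, an endosomal sensor of double-stranded RNA, stood at 6.0, 8.06, 7.14 and 9.44 in MT-1, above background with OR21 and Comb, and below background in MT-2 (5.70 to 6.21). CGAS, which makes the messenger that activates STING1, was bright in both lines (10.67 to 12.18), and MAVS, the adaptor of RIGI and IFIH1, stood between 7.50 and 8.72.

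**Figure D4:**
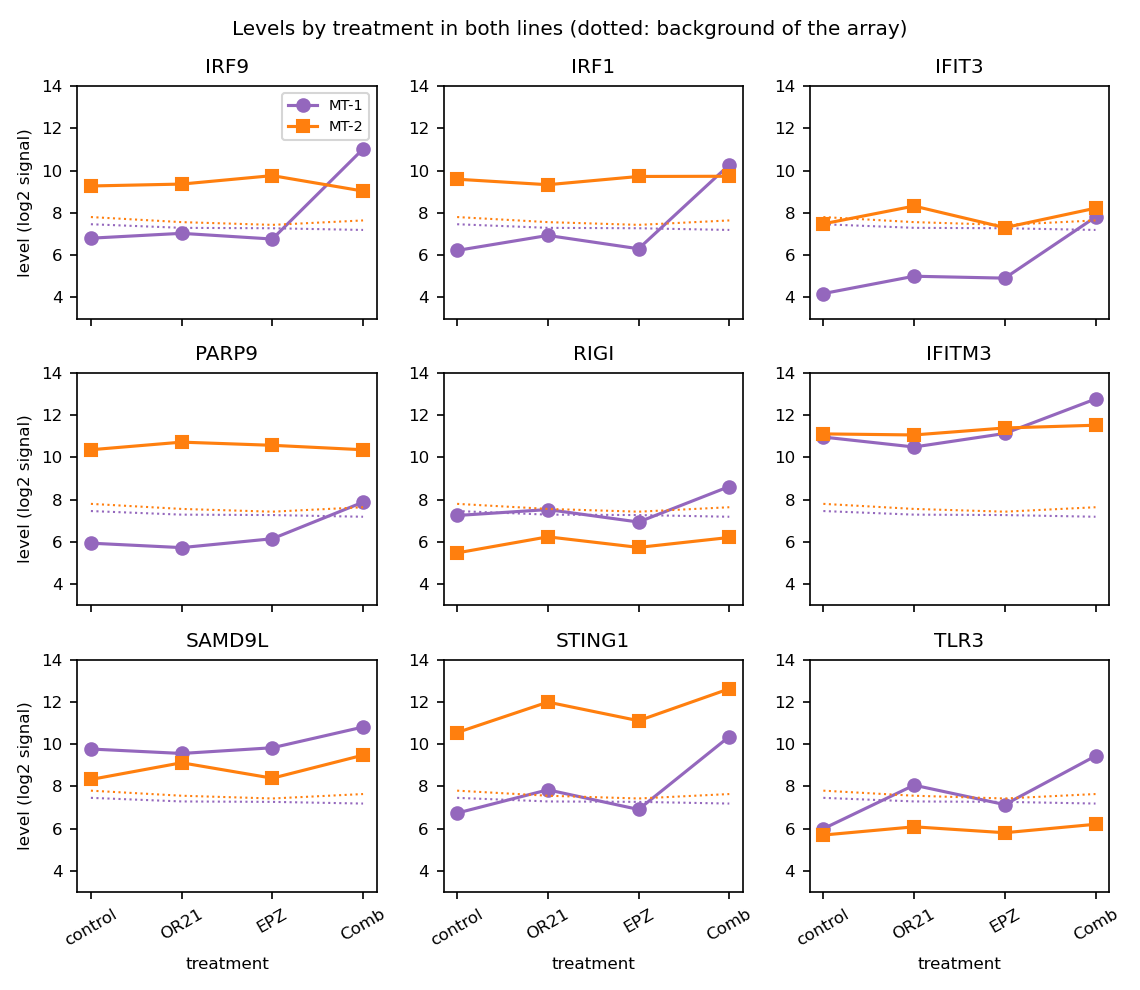
Log2 signal (vertical axis) of 9 genes under the 4 treatments (horizontal axis) in MT-1 (purple circles) and MT-2 (orange squares), 1 array per point, with dotted lines for the background of each array. IRF9 and IRF1 exceed background in MT-1 only with Comb, at 11.02 and 10.27, and STING1 is higher with OR21 and with Comb in both lines.

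A wider list of 30 interferon-responsive genes that are not among the 32 had 29 measured. With Comb, MT-1 had 9 of them higher and 2 lower by at least 1, and MT-2 had 4 higher and 1 lower. All probe sets had shares of 11.2% higher and 9.64% lower (MT-1), and 5.05% higher and 1.95% lower (MT-2). GBP2, a guanylate-binding protein, stood at 6.26, 7.56, 6.66 and 8.0 in MT-1 and at 7.54, 8.52, 8.03 and 9.67 in MT-2, and had a limma estimate of 1.94 ± 0.23 with Comb (unadjusted p = 0.000135, adjusted p = 0.114). In MT-1 the others above background were IFI16 (1.98), GBP4 (at least 1.78), SAMD9 (1.78), EPSTI1 (1.58) and IFITM2 (1.45). In MT-2 the higher ones were GBP2, PARP12 (1.43), LY6E (1.23) and TRIM22 (1.06), and the lower one was IFI16 (-2.12). TRIM22 was below background in MT-1. SAMHD1, which depletes nucleotides, was at -1.28 in MT-1, as was NMI at -1.41.

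Envelope genes of endogenous retroviruses were mostly below background. Of 7 measured, ERVV-1 and ERVK13-1 exceeded background on some arrays. ERVV-1 stood at 7.61, 6.84, 8.58 and 5.87 in MT-1 and at 10.51, 11.19, 11.20 and 12.01 in MT-2, so Comb was 1.5 higher in MT-2 and at -0.42 or lower in MT-1. Repeat-derived RNA as such was not analysed here.

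Cell type markers also differed on the MT-1 Comb array. All 6 T cell markers above background in MT-1 were lower there than untreated: CD28 (-4.08, from 12.80 to 8.72), CD247 (-2.16), CCR4 (-1.60), CD5 (-0.79), IL2RA (-0.79) and CD7 (-0.31). The other 6 stayed below background in MT-1, and the median of all 12 was 6.75 untreated and 7.09 with Comb. In MT-2, CD247 was at -1.25 and CD5 at 1.58 with Comb. The 4 epithelial and stromal markers had a median level of 5.28 in untreated MT-1 and 7.69 with Comb, with KRT8 at 7.77 and 12.91, EPCAM at 4.71 and 8.66, and COL1A1 and PECAM1 above background on no array. The 2 measured markers of plasmacytoid dendritic cells, a main source of interferon, had medians of 4.94 and 6.67, with IL3RA at 6.0 and 9.22 and CLEC4C above background on no array. In MT-2 the same medians were 5.92 and 6.15, and 5.13 and 5.15. The part of these markers in the interferon-stimulated genes was not tested.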

How the data were processed

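Total RNA from 8 cultures was hybridised to Affymetrix transcript arrays, 1 per line and treatment. The deposited values are log2 signals made by the authors with RMA, per the submitters' processing notes. The sources used here name no version of RMA and no build. No log base is stated with the values, so base 2 follows from RMA. Array depth is set by signal over background, and precision is limited by the number of arrays.

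Of 24351 entries, 2903 controls were left out. Probe sets were named from the platform annotation (17709 with 1 symbol, 0 with several, 3739 with none), and the brightest stood for a gene. Those with a highest value of at least 6.573, the median of the table, were kept (12942). The 32 genes and all lists were chosen with earlier results of these data known. All of the 32 are named, and from the pathway lists those that differed by 1 or more above background. Cell line and treatment were fitted with limma 3.58.1 in R 4.3.3, with Benjamini-Hochberg adjustment over all probe sets kept. The script was tested on simulated data. Alternatives were another centring, cyclic loess, other filters, thresholds and background levels, and each array left out. Taking differences against background was added after seeing the data.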

Additional observations from a re-analysis of the deposited data

Results flagged for a closer look

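IFIH1 with Comb was at -0.75 against untreated in MT-1 and at 0.54 in MT-2, above background on all arrays, so the lines lay on opposite sides of 0. IFI16, a nuclear DNA sensor from the wider list, was at 0.61 with OR21 in MT-1 and at -1.31 in MT-2, and at 1.98 with Comb in MT-1 and at -2.12 in MT-2. With 1 array per group the difference between the lines was not tested for either gene.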

How the results depend on the processing

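At a threshold of 0.5, EPZ-6438 in MT-1 left 2 genes higher and 1 lower. Comb left 18 higher and 3 lower in MT-1 and 10 higher in MT-2, and OR21 7 higher and 3 lower in MT-1 and 12 higher in MT-2. The share of all probe sets at 0.5 was not computed, so these counts are not set against it. Taken against background, the lower counts in MT-1 were 0 with OR21 and 0 with Comb, and the higher counts 5 for Comb in MT-1, 0 for OR21 in MT-2 and 2 for Comb in MT-2. With every level below background raised to it, medians were -0.27 (Comb, MT-1), -0.24 (OR21, MT-2), -0.37 (EPZ-6438, MT-2) and -0.17 (Comb, MT-2). Centring gave 1 gene higher with OR21 and 5 with Comb in limma at an unadjusted p under 0.05. Leaving out each array in turn gave 0 to 4 genes higher and 0 to 1 lower with OR21, 0 to 1 lower with EPZ-6438, and 3 to 11 higher and 0 to 1 lower with Comb. It gave 1 to 8 higher and 0 to 1 lower for Comb over OR21, 2 to 10 higher for Comb over EPZ-6438, and 0 to 7 higher and 0 to 1 lower for the excess. At an adjusted p under 0.05 the ranges were 0 to 6 for Comb, 0 to 2 over OR21 and 0 to 3 over EPZ-6438. Against the 99th percentile of the negative controls, 7 genes exceeded background with OR21 and 8 with Comb in MT-1, and 5 untreated and 6 with Comb in MT-2. In untreated MT-1 the 8 genes above background all exceeded that level (8.68) too, so untreated and Comb counts were equal in MT-1. Centring and cyclic loess reversed no within-line difference of 1 or more in a single gene. The direction of single genes was not compared in the other runs. The cause of these shifts was not tested. Each group held 1 array, so there were no replicates within a line to pair. Cell line is a term of the fit, so treatments were compared within lines.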
